A study of Mus musculus with 7 samples.

Results

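The 10 genes described here encode the lecticans, link proteins and tenascins of the brain's extracellular matrix. They are Acan, Bcan, Ncan, Vcan, Hapln1, Hapln2, Hapln3, Hapln4, Tnr and Tnc, chosen by symbol from the 17732 genes of the authors' deposited table, and all 10 were listed with an adjusted p-value. The table compares medial prefrontal cortex of wild-type male mice of the inbred strain 129SvEv, taken once a remote memory had been retrieved. By the labels, 3 libraries belong to the treatment group CFC and 4 to the treatment group SC. The labels do not spell out either name, give no age and do not say whether a library is 1 animal or a pool. The 16 markers of deep and upper cortical layers that were checked against the label of the tissue were all listed, with mean normalized counts from 53.4 to 4304 in the authors' deposited table. Each gene has 1 mean normalized count over the 7 libraries, 1 log2 fold change and 1 standard error, and values per library were not analysed here. The numerator of the fold change is not stated. Each difference is therefore called positive or negative, without naming a higher group.

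Lecticans are chondroitin sulfate proteoglycans that bind the sugar chain hyaluronan at one end and tenascins at the other. Link proteins, the products of the Hapln genes, clamp lecticans to hyaluronan, and tenascin-R ties lecticans to each other. In adult cortex these proteins form perineuronal nets around the cell bodies and proximal dendrites of neurons, above all parvalbumin interneurons. A related matrix surrounds the node of Ranvier, the gap in the myelin sheath, where the link protein Hapln2 (also called Bral1) and a short form of versican, the product of Vcan, are known components. The members were accordingly read as 6 perisomatic net genes (Acan, Bcan, Ncan, Hapln1, Hapln4 and Tnr), 2 nodal matrix genes (Hapln2 and Vcan), and Hapln3 and Tnc. The names of these groups are working labels and do not mean that the net proteins are absent from the node. Hapln3 is made largely outside the nervous system, and tenascin-C is mainly a protein of development and injury.

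Each lectican gene is a chromosomal neighbour of 1 link protein gene, and no protein-coding gene lies between the partners in GENCODE M21 on GRCm38. Bcan and Hapln2 lie on chromosome 3, at chr3:87987531-88000230 and chr3:88021750-88027583, both on the minus strand and 21519 bases apart. This pair joins a net gene to a nodal gene, so their start regions are shown side by side. The windows run from 250 bases before the start site to 50 bases after it, on the minus strand, from RefSeq on GRCm38.p6, at chr3:88027462-88027761 for Hapln2 and chr3:88000307-88000606 for Bcan. Capitals mark matches, on either strand, to the SOX letters ACAAAG or ACAATG and to the MYRF letters CTGGCAC or CTGGTAC. SOX10 and MYRF are transcription factors of the oligodendrocyte lineage, and the motifs share no letters in these windows.
Hapln2: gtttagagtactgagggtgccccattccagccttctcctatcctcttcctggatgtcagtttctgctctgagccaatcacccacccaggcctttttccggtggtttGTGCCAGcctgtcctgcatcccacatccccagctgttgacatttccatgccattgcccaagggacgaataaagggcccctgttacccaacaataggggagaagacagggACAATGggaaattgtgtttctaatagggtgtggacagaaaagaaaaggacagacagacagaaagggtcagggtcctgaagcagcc
Bcan: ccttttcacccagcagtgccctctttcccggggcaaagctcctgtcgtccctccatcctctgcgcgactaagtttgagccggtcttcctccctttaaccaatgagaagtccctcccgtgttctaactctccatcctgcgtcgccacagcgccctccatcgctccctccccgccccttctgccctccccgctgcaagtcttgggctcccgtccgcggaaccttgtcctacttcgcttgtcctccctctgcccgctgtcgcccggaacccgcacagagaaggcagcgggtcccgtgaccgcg
The Hapln2 window held 1 SOX match, 35 bases before the RefSeq start site, and 1 MYRF match, which begins 144 bases before it. The Hapln2 gene in GENCODE M21 starts further upstream in the window, at base 88027583. The SOX match therefore lies inside the gene as annotated there. The Bcan window held neither, and the Bcan start in GENCODE M21, at base 88000230, lies outside it. Over all 32851 RefSeq windows of this length, 28.6% had a SOX match, 7.1% a MYRF match and 2.11% both. Windows were at hand for 9 of the 10 members. Besides Hapln2, the Tnr window had a SOX match and the Acan window a MYRF match. The Acan start in GENCODE M21, at base 79053483, lies outside the Acan window. These are matches of letters and do not show binding.

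The levels of the members, set against transcript length, spanned a wide range. The authors' deposited mean counts were divided by the length of all annotated exons of the gene. Bcan (brevican) and Ncan (neurocan), the lecticans of adult brain, stood first at 779 and 752 mean normalized counts per kb, and Tnr (tenascin-R) followed at 531. Hapln4 (Bral2), a link protein of nets and of perisynaptic matrix, was at 289 and Hapln1 (Crtl1), the classical link protein of the net, at 67.3 counts per kb. The nodal genes Vcan and Hapln2 lay next to each other at 43.3 and 42.5. At the lower end were Tnc at 13.6, Hapln3 at 11.4 and Acan (aggrecan), the defining lectican of parvalbumin cell nets, at 4.90 counts per kb. Acan was at the 0.352 percentile of all genes with an adjusted p-value on this scale, and Bcan at the 93.4 percentile. The lowest mean count among these 13060 of the 17732 genes was 34.9, and Acan had 36.6. Genes without an adjusted p-value were not ranked. No error of a level can be given from a mean over libraries, so the order of close neighbours such as Bcan and Ncan, or Vcan and Hapln2, is not resolved. In bulk tissue, fewer cells of a type and less RNA per cell cannot be told apart.

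**Figure D1:**
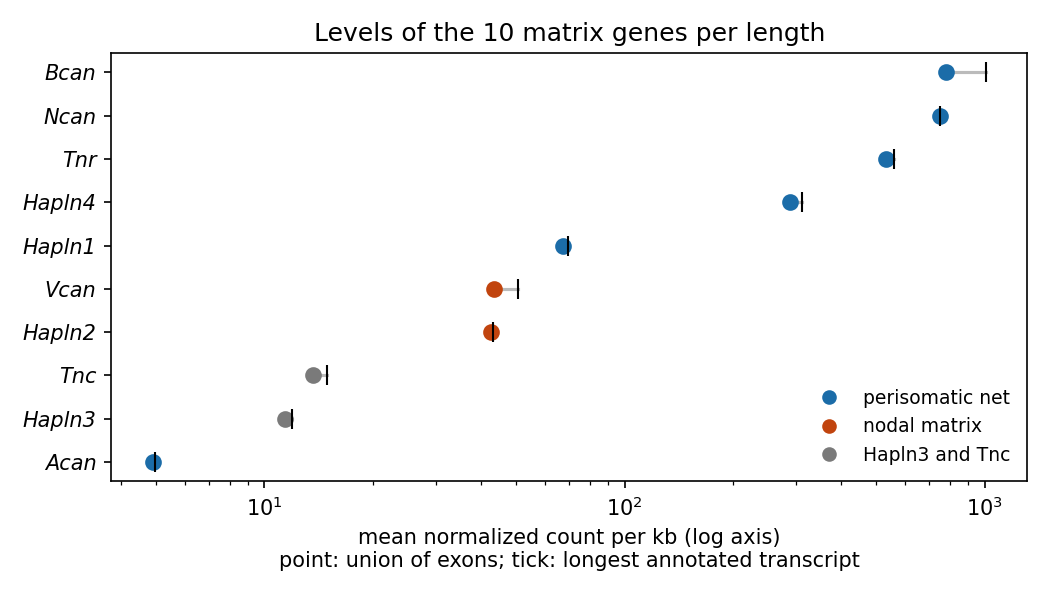
Mean normalized count per kb (log axis) of each of the 10 genes, with points for the union of exons and ticks for the longest annotated transcript. Bcan, Ncan and Tnr lie at 531 counts per kb or more and Acan at 4.90, and the order is the same with both lengths.

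None of the 10 members was among the genes called between the groups by the authors' DESeq2 Wald test. The background was 67 of 13060 genes, or 0.513%, that the authors' deposited table called at 0.05 after adjustment. Without adjustment, 1 of the 10 members was under 0.05, Hapln2 with a positive value. Here the same rule took 8.1% of all genes in either direction and, by direction, 4.56% positive and 3.54% negative, so a count of 1 in 10 is near the background. Hapln2 also had the lowest adjusted p of a member, 0.406 in the authors' deposited table. All 6 perisomatic net genes had negative log2 fold changes, with a median of -0.07, and both nodal genes had positive ones. The median log2 fold change of the 13060 genes was -0.0017.

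**Figure D2:**
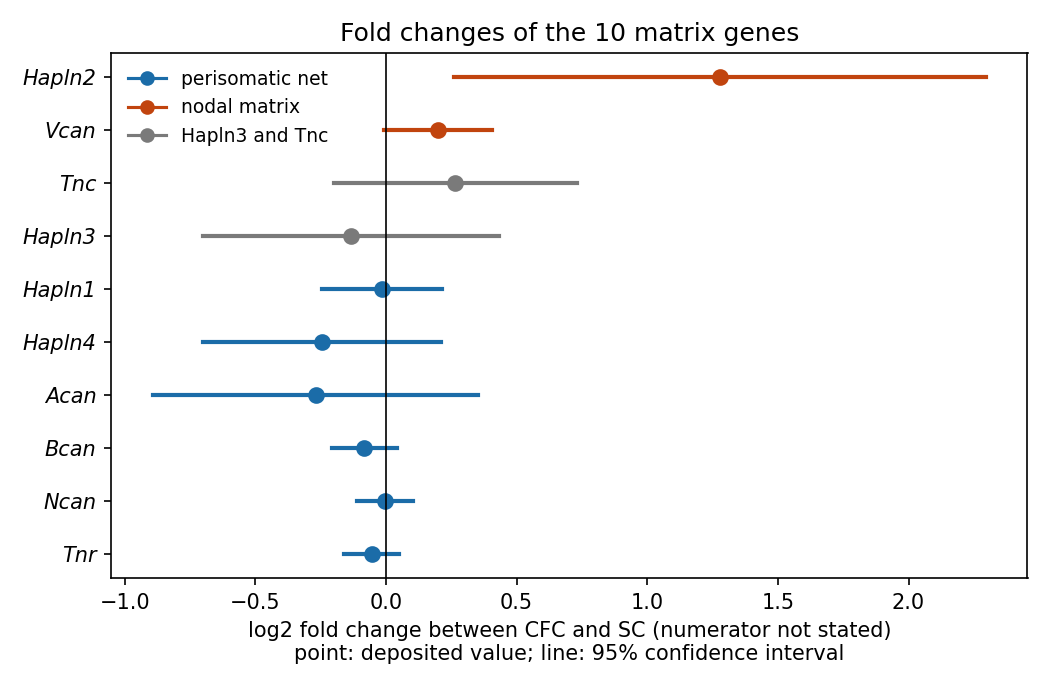
Log2 fold change of each member between CFC and SC, with points for the deposited value and lines for the 95% confidence interval. The interval of Hapln2 lies wholly above 0, and those of the other 9 genes include 0.

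The net proteoglycans of high abundance were measured most closely. Bcan, with 3164 mean counts in the authors' deposited table, had a log2 fold change of -0.08 ± 0.06 (SE, adjusted p = 0.906). As a ratio this is 0.944-fold, with a 95% confidence interval from 0.867 to 1.03. Ncan, with 5413 mean counts in the authors' deposited table, was at 0.997-fold (0.925 to 1.07). For Tnr the authors' deposited table listed 6831 mean counts and an adjusted p of 0.971, and the ratio was 0.963-fold (0.895 to 1.04). A ratio beyond 1.17-fold for Bcan, 1.15-fold for Ncan or 1.15-fold for Tnr would have been needed for a call at these standard errors. Exons of Tnr share 443 bases with an antisense gene, Gm38039, and reads of the pair cannot be told apart without the strand setting.

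The remaining net genes were less closely measured. Hapln1 reached 397 mean counts in the authors' deposited table, and its ratio was 0.989-fold with an interval from 0.843 to 1.16. Acan, with 36.6 mean counts in the authors' deposited table, had a ratio of 0.83-fold with an interval from 0.539 to 1.28. A change of 2.25-fold would have been needed for Acan to be called, so a smaller one could not have been called at this standard error. Hapln4 stood at a log2 fold change of -0.25 ± 0.23 (SE, adjusted p = 0.97) in the authors' deposited table. Its ratio of 0.844-fold had an interval from 0.615 to 1.16, wider than that of Hapln1 although the authors' deposited table gave it the higher mean count, 1133.

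Among the nodal genes, Hapln2 had the largest fold change of the 10 members. The authors' deposited table listed 101 mean counts and a log2 fold change of 1.28 ± 0.52 (SE), with p = 0.0138 unadjusted and 0.406 adjusted. The ratio was 2.43-fold, with a 95% confidence interval from 1.2 to 4.91. That mean count and ratio correspond to about 152 counts in one group and 62.6 in the other if CFC is the numerator, and to about 135 and 55.5 if SC is. A ratio of 3.76-fold would have been needed for a call at this standard error. For Vcan the authors' deposited table listed 627 mean counts and 0.20 ± 0.11 (SE) on the log2 scale, with p = 0.0589 unadjusted and 0.69 adjusted. Its ratio was 1.15-fold, with an interval from 0.995 to 1.33. GENCODE M21 lists 8 coding transcripts of Vcan, from 294 to 12427 bases, and the table counts them as 1 gene, so the nodal form was not separated from the others.

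The nodal and net genes were then set side by side. The interval of Hapln2, which starts at 0.26 on the log2 scale, did not overlap those of 5 of the other 9 members, namely Bcan, Ncan, Hapln1, Hapln4 and Tnr. It overlapped those of Vcan, Acan, Hapln3 and Tnc. Acan and Hapln3 were negative too, but had wide standard errors of 0.32 and 0.29. For the 13060 genes the medians were -0.0017 for the fold change and 0.098 for the standard error. A gene with both values would not overlap Hapln2 either. The share of all genes without overlap was not counted, so the 5 members are not read as a contrast of nodal and net genes. Intervals from a t distribution with 5 degrees of freedom were an alternative added after the values were seen. With them the count of members without overlap fell from 5 to 0, so the lack of overlap rests on the normal interval. The interval of Vcan overlapped those of all 9 other members. The covariance between genes of the same libraries is not known here, so the difference between genes was not tested. With the nodal genes apart, Tnc was positive at 0.27 ± 0.24 and Hapln3 negative at -0.13 ± 0.29 (SE) in the authors' deposited table. Exons of Tnc share 176 bases with 8030451A03Rik on the opposite strand.

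The chromosomal pairs did not share a sign in 2 of 4 cases. Hapln2 was at 1.28 beside -0.08 for Bcan, and Vcan at 0.20 beside -0.02 for Hapln1, in the authors' deposited table. Hapln4 and Ncan were both negative, at -0.25 and -0.0043, and convergent with 2222 bases between them. Acan and Hapln3 were also both negative, at -0.27 and -0.13 in the authors' deposited table. Their annotated 3' ends face each other with 2 bases between them on chromosome 7, so reads that run past either end could be counted to the partner, which was not tested. No test was made on the pairs.

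The members also differed in how closely the libraries of a group resembled each other. Each standard error was set against the running median of genes with like mean counts. For 8 members this ratio lay between 0.913 and 1.30. It was 2.77 for Hapln2 and 3.16 for Hapln4, so 2 of the 10 members were over 2, where 1.85% of all genes were. If all libraries had equal depth and both groups equal means, the deposited errors correspond to coefficients of variation between libraries. These were about 46% for Hapln2 and 20.9% for Hapln4. For Hapln2, with a ratio of 2.43-fold, equal means are in doubt and the estimate is rough. The same estimate was 5.43% for Bcan, 4.83% for Ncan, 4.67% for Tnr, 9.41% for Hapln1 and 8.74% for Vcan. On this scale Hapln4 does not stand apart from the 3 genes of lowest level, Acan at 23.6%, Hapln3 at 21% and Tnc at 19.2%, whose standard errors were near those of genes with like mean counts. Counting error made up about 4.47% of the variance of Hapln2 and 1.97% of that of Hapln4, but 32.8% of that of Acan and 36.1% of that of Hapln3. DESeq2 draws the spread of most genes towards a common trend, so the estimates of members near the trend are in part those of the trend.

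**Figure D3:**
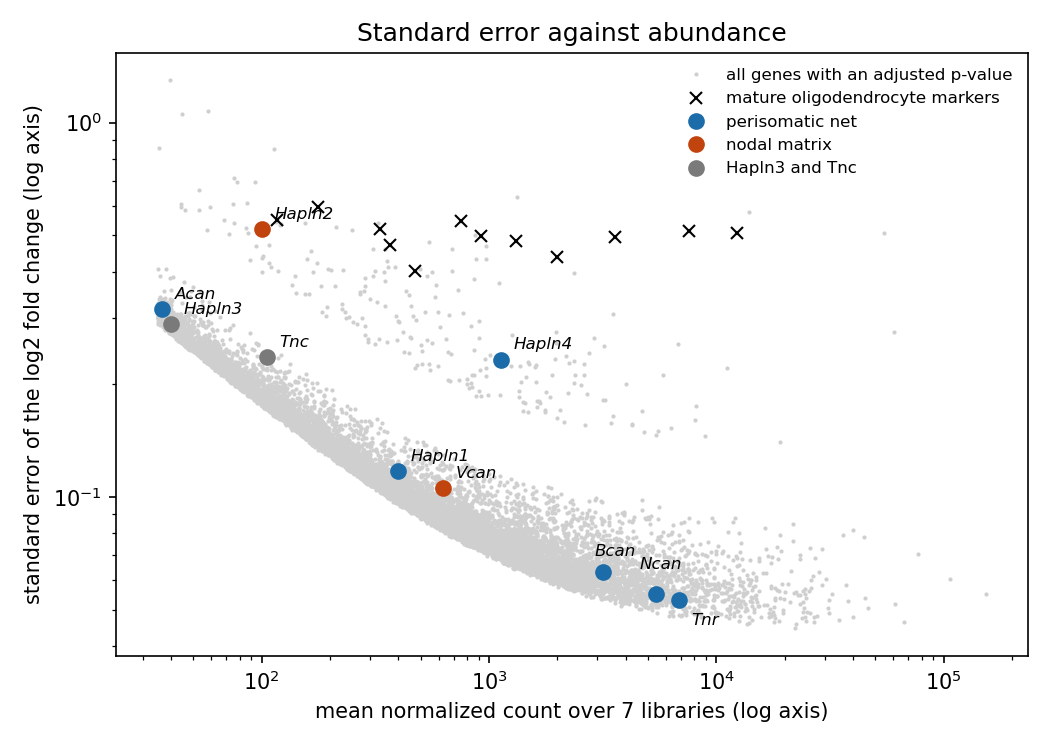
Standard error of the log2 fold change against mean normalized count (both log axes) for all genes with an adjusted p-value, the 10 members and 12 mature oligodendrocyte markers. Hapln2 and Hapln4 lie above the main band, Hapln2 close to the oligodendrocyte markers, and the other 8 members lie on the band or at its upper edge.

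Markers of other cells were read beside the members. All 12 markers of mature oligodendrocytes, the cells that make Hapln2, were positive, with log2 fold changes from 0.86 to 1.67 and a median of 1.22. The value of 1.28 for Hapln2 lies within that range. It also lies within the ranges of the striatal markers (0.26 to 1.95) and the deep-layer markers (0.28 to 2.10) read below. All 12 oligodendrocyte markers had an unadjusted p-value under 0.05 and none an adjusted one. Their standard error ratios ran from 3.15 to 9.0, above the 2.77 of Hapln2. Mobp and Mal, which encode myelin proteins, were listed at 1.67 and 1.30 by the authors' deposited table. Ermn and Cldn11, of the oligodendrocyte cytoskeleton and tight junction, stood at 1.46 and 1.42 in the authors' deposited table. The oligodendrocyte markers were at mean counts from 117 to 12290 and none was at 0. Their summed level per group was not analysed here, and their part in the value of Hapln2 was not tested.

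For Vcan, which oligodendrocyte precursors express, the markers of that stage had a median of 0.05, with 6 positive and 4 negative. Pdgfra, the growth factor receptor that defines these cells, was at -0.04, and Sox10, a factor of the whole lineage, at 0.60 (unadjusted p = 0.0484) in the authors' deposited table. Astrocytes are a main source of Ncan and Bcan. Of 10 astrocyte markers 8 were negative, with a median of -0.11. The authors' deposited table gave S100b at -0.44, Aldoc at -0.17 and Slc1a3 at -0.14 among them (adjusted p = 0.0689, 0.16 and 0.623). The value of largest size in the list was positive, that of Gfap, the astrocyte filament gene, at 0.56 ± 0.43 (SE) in the authors' deposited table, named after it was seen, with a standard error ratio of 5.66. The 10 parvalbumin interneuron markers, 7 of them negative, had a median of -0.02 and no unadjusted p-value under 0.05. Gad1, which makes GABA, and the fast potassium channel gene Kcnc1 were at -0.01 and -0.03 in the authors' deposited table. Of 12 vessel and meningeal markers 7 were positive, with a median of 0.04. Flt1, an endothelial receptor, was at -0.15 and Pdgfrb, a pericyte receptor, at 0.0041 in the authors' deposited table.

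Markers of position in the tissue were read in the same way. All 9 deep-layer markers were positive, with a median of 0.57 and 5 of them called, and all 7 upper-layer markers were negative, with a median of -0.27 and 2 called. All 8 striatal markers were positive, with a median of 0.73 and 1 called. Standard error ratios ran from 1.07 to 3.18 in the deep-layer list and from 1.01 to 4.10 in the striatal list. The 2.77 of Hapln2 lies within both ranges. The part of these position markers in the values of the 10 matrix genes was not tested.

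**Figure D4:**
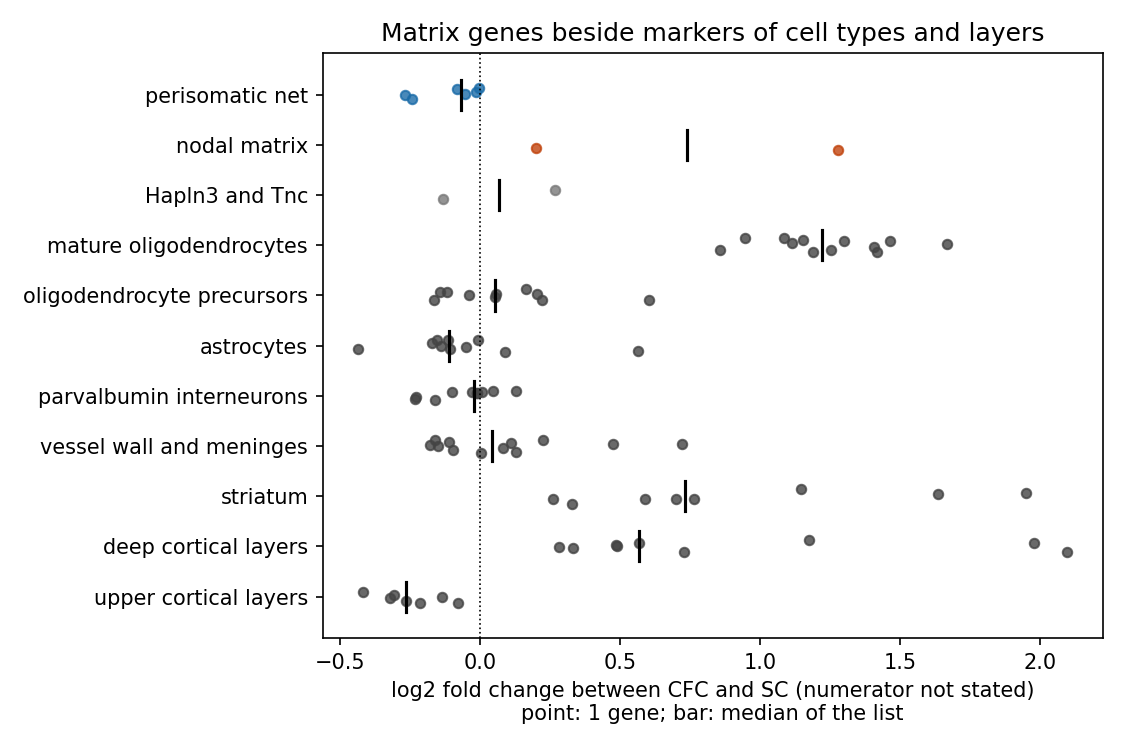
Log2 fold changes between CFC and SC of the members and of 8 marker lists, with 1 point per gene and a bar at the median of each list. Hapln2 at 1.28 lies among the mature oligodendrocyte markers, whose median is 1.22, and also within the ranges of the striatal and deep-layer markers. The 6 net genes lie between -0.27 and -0.0043.

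The rest of the matrix pathway was examined with 5 lists, and no gene of them was called by the authors' DESeq2 Wald test, which called 0.513% of all genes. At an unadjusted p under 0.05 there were 2 of 11 receptors or partners and 1 of 9 proteoglycans, and none in the other 3 lists. The same rule took 8.1% of all genes, so these small counts are not read as a result about the lists. In the hyaluronan list, which holds synthases, hyaluronidases and receptors, 7 of 10 genes were positive, with a median of 0.06, and 7 had an adjusted p-value. Its most abundant genes, the hyaluronan-degrading Cemip and Cemip2, were listed by the authors' deposited table at 0.06 and 0.19 (adjusted p = 0.995 and 0.821). Of 11 listed receptors and partners of the net 8 were negative, with a median of -0.09. The 2 with an unadjusted p under 0.05 were Nptx2, a pentraxin secreted at synapses onto parvalbumin interneurons, at -0.33, and Rtn4rl1, a receptor of the Nogo receptor family that binds chondroitin sulfate, at -0.20, in the authors' deposited table. Adjusted p was 0.387 for Nptx2 and 0.488 for Rtn4rl1, by the authors' deposited table.

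In the list of 9 other proteoglycans 8 were positive, with a median of 0.08. It includes Smc3, listed for its reported secreted form bamacan but best known as a nuclear cohesin subunit, and without it 7 of 8 were positive with a median of 0.07. The exception, Cspg5 (neuroglycan C), was at -0.10 with an unadjusted p-value of 0.0417 and an adjusted p-value of 0.616, and Spock2 (testican-2), the most abundant, at 0.08, in the authors' deposited table. The proteases that cut lecticans and their inhibitors had 6 positive and 6 negative genes, of which 9 had an adjusted p-value. The metalloproteinase inhibitors Timp2 and Timp3 were at 0.0083 and -0.06 in the authors' deposited table. Of 12 proteins of the node and paranode 7 were positive, with a median of 0.04. Ank3, the ankyrin scaffold of the node, and Nrcam, a nodal adhesion molecule, were both at 0.08 in the authors' deposited table.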

How the data were processed

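PolyA RNA of 7 libraries was measured, per the labels, from 100 ng of RNA with the KAPA mRNA HyperPrep kit. The submitters' processing notes name Trimmomatic, Subread, DESeq2 and the build mm10; versions, annotation and strand setting are not given in the sources used here. Per the file headers, the authors deposited, per gene, a mean normalized count (a signal averaged over libraries), a log2 fold change with its standard error, a Wald score, a p-value and a Benjamini-Hochberg adjusted p-value. The fallback of the design, the authors' own DESeq2 Wald test called at an adjusted p-value under 0.05, was used because the table holds no counts per library. The depth per library is unknown, and the spread measured is that between libraries, which may be technical. From these columns 95% normal intervals, standard error ratios (running median over 501 genes), the fold needed for a call (the largest called p-value, 0.00023) and coefficients of variation were computed with Python 3.11.15, pandas 2.3.3 and scipy 1.17.1. The coefficient takes the variance of the log fold as the sum of counting and between-library parts for 3 and 4 libraries. Equal depths and equal group means are assumed. Lengths came from GENCODE M21, which held 17726 of the 17732 IDs. The steps were tested on simulated data. Where a symbol had several IDs, that with the highest mean count was used.

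Named genes were all 10 members and, per list, those with an unadjusted p-value under 0.05 (at most 4) or, where fewer than 2, the most abundant. The striatal and cortical layer lists were read only as lists, and no gene of them was named by this rule. Members and lists were chosen with earlier results of these data known. Otx2 and Mmp3 were not analysed here. Alternatives covered thresholds, adjustments, centring, the error distribution, the choice of net members and transcript length.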

Additional observations from a re-analysis of the deposited data

How the results depend on the processing

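No paired analysis was possible because the table holds no values per library. For the same reason the planned fits without each library, with a replicate block, or with edgeR and DESeq2 normalizations were not run. The count of members called was 0 under an adjusted p-value of 0.1, with no filter on the mean count, with a mean count of at least 100 and against a null of a 1.2-fold change, and 1 at an unadjusted p-value under 0.05. At that unadjusted threshold, an alternative chosen after seeing the data, the receptor list had 2 genes and the proteoglycan list 1, where each had 0 by the adjusted p-value. The hyaluronan, protease and node lists had 0 under both. The unadjusted threshold took 8.1% of all genes and the adjusted one 0.513%. None of the 20 alternative values of the members' fold changes changed sign or side of the threshold, but they are a weak check. The form with a t distribution keeps the fold change itself, so its sign could not move. Centring subtracts a median of -0.0017, smaller in size than the value of any member, so no sign could move there either. With a t distribution of 5 degrees of freedom, the unadjusted p-value of Hapln2 was 0.057 and its interval ran from -0.06 to 2.61, so that it included 0. In that form no gene of the table was called after adjustment and 394 were under 0.05 without it, so it does not bear on which members would be called. The median of the net genes was -0.07 with 6 or with 8 members, and the weighted mean was -0.05. The number of members whose interval does not overlap that of Hapln2 was 5 with normal intervals and 0 with that t distribution, without a share over all genes beside it. Counting error had its largest share of the variance in Acan and Hapln3 among the members, and whether 1 library decides the value of Hapln2 was not tested.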

Other observations

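Some further genes, named after their values had been seen, also had standard errors over 2 times those of genes with like mean counts. Adamts4, a protease that cuts brevican and aggrecan and is made by oligodendrocytes, was at 0.85 ± 0.53 (SE, adjusted p = 0.823) on the log2 scale in the authors' deposited table, and its standard error ratio was 3.08. Its coefficient of variation between libraries was about 47.4%, beside 46% for Hapln2. For Hapln4, the nearest ratios among the parvalbumin interneuron markers were those of Pvalb, the calcium-binding protein that names these cells, at 2.52, and of Syt2, their synaptic vesicle calcium sensor, at 4.03. Both were negative like Hapln4, at -0.23 ± 0.30 and -0.16 ± 0.46 (SE, log2 scale) in the authors' deposited table. Genes of other lists came nearer to the 3.16 of Hapln4, among them Bcl11b at 3.18, Aspa at 3.15 and Sox10 at 3.12, which were positive. Lamp5, at 2.96, was negative. The ratio of Hapln4 thus does not single out the parvalbumin interneuron list. The other 7 markers of that list with an adjusted p-value had ratios under 2, and whether the same libraries set these errors apart cannot be read from a table without values per library.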
